A study of Mus musculus with 2 samples.

Results

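The glioma stem cell markers comprised 10 genes, Nes, Prom1, Cd44, Vim, Fabp7, Msi1, Msi2, Bmi1, Fut4 and Aldh1a1, which were picked by symbol from the 32285 genes counted in each culture. They were examined in GL261, an established glioma cell line of C57BL/6 mice that the labels class as astrocytoma, to ask how the markers differed between adherent and neurosphere cells and how often a single cell carried several of them. Adherent cells were grown in DMEM with 10% FBS and penicillin-streptomycin and were harvested near confluency. Neurosphere cells, which grow as free-floating aggregates, received 20 ng/ml of EGF, 20 ng/ml of FGF and B-27 (1:50) on top of that same serum-containing medium and were collected after 12 days. By the labels both cultures were treated with trypsin, while the study's methods name trypsin for the adherent cells only, and neurospheres were also broken up by trituration through narrowing tips, a step not described for adherent cells. The cells of each culture were taken up in medium with DMSO and sequenced as 1 library of single cells (scRNA-Seq, 10x Genomics 3’ chemistry), so differences could not be set against replicates and none was tested.

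Glioma stem cells are the tumor cells that can renew themselves and seed a new tumor, and they are grown in culture as neurospheres. No single gene defines them. The markers used for them are proteins of neural stem and progenitor cells, such as the intermediate filaments nestin and vimentin, surface proteins such as prominin 1 (CD133) and CD44, and regulators of RNA or chromatin that keep progenitors from differentiating, and several of them also mark other cell states.

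A level is given as CPM, the unique molecular identifiers (UMIs) of a gene over the kept cells of a culture, scaled to the same library total in both, after mitochondrial and ribosomal protein genes were removed. The kept cells numbered 5051 adherent cells with 46290996 UMIs and 4276 neurosphere cells with 64943938 UMIs, with medians of 8260 and 13198.5 UMIs per cell. Because neurosphere cells were deeper, shares of cells with a UMI are given after each cell was thinned to 5000 UMIs, which left 4464 adherent and 4196 neurosphere cells, with 587 and 80 cells too shallow. All 95% intervals are exact and cover counting error only. Both libraries came from the same cell line, so there was no cell type lacking a marker in which the share given by free RNA could be read. Mitochondrial genes took a median of 2.02% of UMIs in kept adherent cells and 3.97% in kept neurosphere cells, and the libraries shared 12 cell barcodes, of which 9 passed the cell filter in both. Of the defining markers of astrocytes, Aqp4 and Sox9 had no UMI in either culture and Gfap had 30 and 27 UMIs, while S100b (161 and 255 CPM in adherent and neurosphere cells) and Slc1a3 (370 and 80.5 CPM) were counted in both. The summed level in adherent and neurosphere cells was 13.4 and 6.45 CPM for 8 immune markers, with the defining Ptprc at 1 and 0 UMIs and most of the sum from Cd68 (485 and 276 UMIs) and Cx3cr1 (103 and 96 UMIs). It was 1.68 and 3.42 CPM for 6 endothelial and mural markers, with Cdh5 at 0 and Pecam1 at 61 and 208 UMIs, and 26.5 and 50.4 CPM for 8 neuronal markers, with Snap25 at 0, Syt1 at 306 and 1202 UMIs and Tubb3 at 910 and 2044 UMIs. The summed level of 6 fibroblast markers was 3.24 CPM in the adherent and 387 CPM in the neurosphere culture, mostly of the collagen gene Col1a1. Dcn had 1 and 3606 UMIs and Lum 0 and 143 UMIs. Col1a2 had 1 and 23 UMIs and Thy1 0 and 7 UMIs, while Pdgfrb went the other way, with 32 and 4 UMIs. The part of any of these differences between the cultures in the values of the glioma stem cell markers was not tested.

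The start regions of 4 markers are shown as examples: Nes and Bmi1 had higher levels in neurosphere cells, Cd44 a lower level, and Fabp7 the highest variance of UMIs per cell over its mean in neurosphere cells. Vim, which had the largest change between the cultures among the markers with a ratio, is not among them. Each run holds 200 bases from 250 to 51 bases before the start of transcription, 5′ to 3′ on the strand of the gene, from RefSeq on GRCm38.p6. RefSeq start regions were matched for 9 of the 10 markers, with none for Msi1. Capitals mark 3 motifs on either strand, the GC box GGGCGG, the CCAAT box CCAAT and the RBPJ core TGGGAA, and overlapping matches of a motif were counted separately.
Nes: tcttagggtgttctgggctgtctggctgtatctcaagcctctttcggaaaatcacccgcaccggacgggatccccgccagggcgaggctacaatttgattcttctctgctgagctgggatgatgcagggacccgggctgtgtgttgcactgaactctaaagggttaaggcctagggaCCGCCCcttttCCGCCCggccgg
Bmi1: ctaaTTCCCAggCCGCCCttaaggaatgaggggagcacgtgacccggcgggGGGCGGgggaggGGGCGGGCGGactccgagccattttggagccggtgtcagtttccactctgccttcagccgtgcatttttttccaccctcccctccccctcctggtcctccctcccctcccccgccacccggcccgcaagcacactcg
Cd44: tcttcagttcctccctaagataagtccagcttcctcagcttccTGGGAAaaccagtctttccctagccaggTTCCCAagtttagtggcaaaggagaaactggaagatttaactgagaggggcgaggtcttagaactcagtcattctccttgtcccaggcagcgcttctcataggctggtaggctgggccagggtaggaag
Fabp7: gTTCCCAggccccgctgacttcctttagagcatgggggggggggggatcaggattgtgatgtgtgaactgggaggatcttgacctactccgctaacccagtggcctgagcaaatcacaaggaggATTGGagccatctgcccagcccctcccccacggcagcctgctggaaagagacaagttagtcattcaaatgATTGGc
The Nes run lies at chr3:87970843-87971042 on the plus strand and holds 2 GC boxes. The Bmi1 run lies at chr2:18676768-18676967 on the plus strand and holds 4 GC boxes, of which 2 overlap, and 1 RBPJ core. The Cd44 run lies at chr2:102901716-102901915 on the minus strand and holds 2 RBPJ cores, in opposite directions. The Fabp7 run lies at chr10:57784673-57784872 on the plus strand and holds 2 CCAAT boxes and 1 RBPJ core, which is the motif read by the nuclear effector of Notch. The run of Vim, which is not shown, holds 2 CCAAT boxes and neither a GC box nor an RBPJ core. Among 32851 such runs of all genes, 24.6% held a GC box, 28.4% a CCAAT box and 17.9% an RBPJ core, so each of these motifs is common, and a match is a run of letters and not a shown binding site.

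Of the 10 markers, 7 had at least 50 UMIs over both cultures, which is the minimum set for a ratio. Bmi1 was over 2-fold higher in neurosphere cells, Vim was over 2-fold lower, and the other 5 lay between these limits. Of the 14654 genes with at least 50 UMIs, 21.7% were over 2-fold higher and 11.7% over 2-fold lower, so 1 of 7 in either direction is close to the share of all genes. The median log2 ratio of neurosphere to adherent CPM was 0.67 over the 7 markers and 0.32 over all genes tested. With another scaling the whole set shifts: TMM scaling moved the median of all genes by -0.22 and a total that also held the mitochondrial and ribosomal genes moved it by 0.22, so each marker is also given relative to that median: the difference of the log2 ratios was 0.75 for Bmi1, 0.62 for Nes, 0.57 for Msi1, 0.35 for Fabp7, 0.03 for Msi2, -1.29 for Cd44 and -1.99 for Vim. Levels of different genes are not compared, since 3’ counts capture genes unequally.

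**Figure D1:**
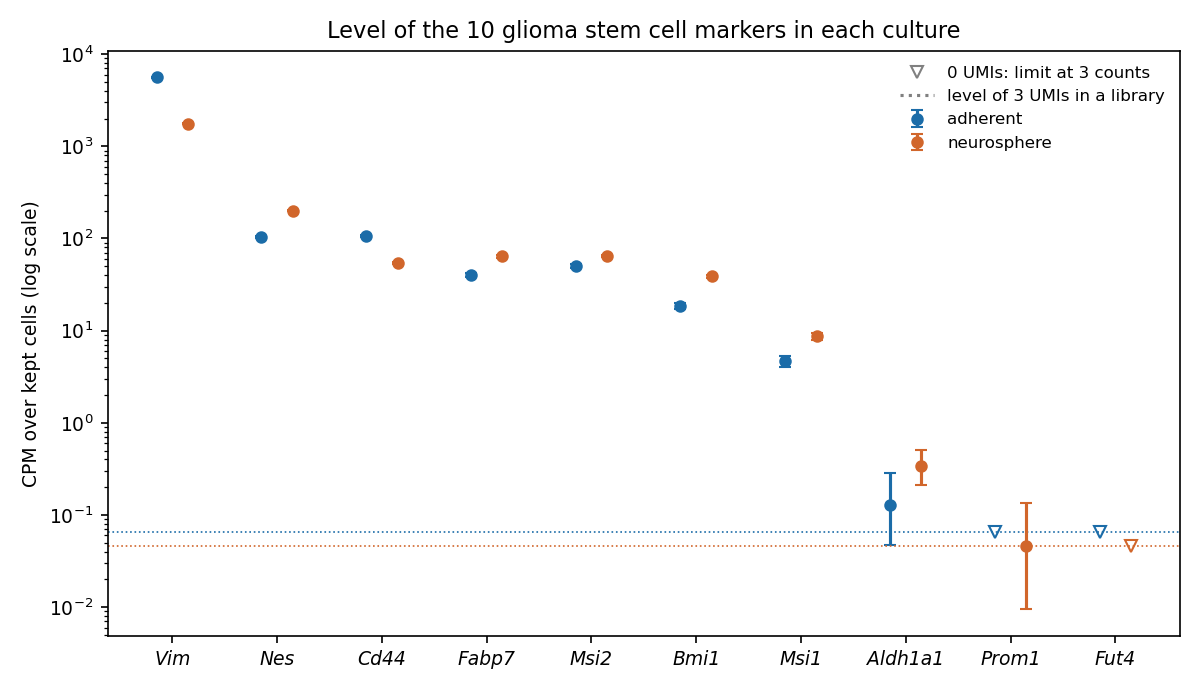
Level of each marker in CPM (log scale) over the kept cells of the adherent and the neurosphere culture, with exact 95% Poisson intervals. Bars narrower than a point are hidden by it, dotted lines give the level of 3 UMIs in a library, and open triangles on them stand for a marker with 0 UMIs. Vim and Cd44 lie lower in neurosphere cells, the other 5 markers with at least 50 UMIs lie higher, Prom1 and Fut4 lie at or below the level of 3 UMIs, and Aldh1a1 lies above it in both cultures, with an interval that includes it in adherent cells.

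The intermediate filament markers went in opposite directions. Nes (ENSMUSG00000004891, chr3:87971078-87980451, plus strand), which encodes nestin, the filament of neural stem cells, had 4823 UMIs and 104 CPM (interval 101 to 107) in adherent cells and 13032 UMIs and 201 CPM (197 to 204) in neurosphere cells. The level was thus 1.93-fold higher in neurosphere cells, a log2 ratio of 0.95 (0.90 to 0.99), which is 0.62 above the median of all genes. At equal depth, a Nes UMI was present in 36.0% of adherent cells (34.5 to 37.4%) and 51.4% of neurosphere cells (49.8 to 52.9%), and at least 2 UMIs in 10.1% and 24.9%. The ratio of Nes passed 2-fold with a total that also held the mitochondrial and ribosomal genes (log2 ratio 1.16) and when the trend with gene length was removed (1.09).

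Vim (ENSMUSG00000026728, chr2:13573927-13582826, plus strand) encodes vimentin, the filament of mesenchymal cells that progenitors and reactive glia also make. It had 258427 UMIs and 5583 CPM in adherent cells and 114488 UMIs and 1763 CPM in neurosphere cells, a level 3.17-fold lower (3.14 to 3.19) in the latter and a log2 ratio of -1.66 (-1.67 to -1.65). Of all genes tested, 6.26% had a lower ratio. Vim was still present in nearly every cell, found in 99.8% of adherent cells and in 97.2% of neurosphere cells at equal depth, so the difference lay in the number of UMIs per cell. The median cell had 26 Vim UMIs in the adherent and 7 in the neurosphere culture, and 94.8% and 33.3% of cells had at least 10. The range over 11 alternatives was -1.88 to -1.44, and all of them kept Vim over 2-fold lower.

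**Figure D2:**
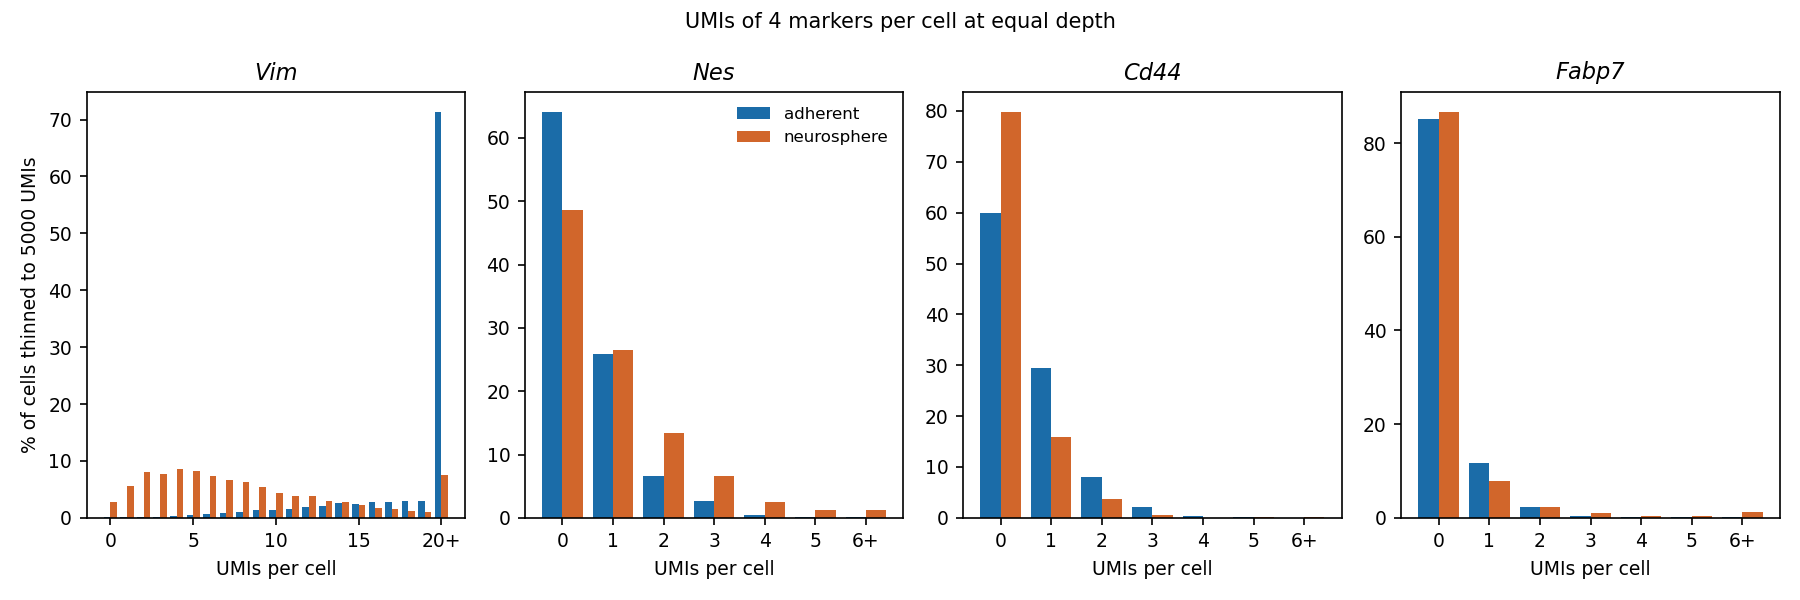
Share of cells, in percent, by the number of UMIs of Vim, Nes, Cd44 and Fabp7 in a cell thinned to 5000 UMIs, for 4464 adherent and 4196 neurosphere cells. The last bar of each panel holds all higher numbers. Vim shifts as a whole, with a median of 26 UMIs in adherent and 7 in neurosphere cells, Nes shifts toward more UMIs and Cd44 toward none, and Fabp7 keeps about the same share at 0 with a longer tail in neurosphere cells.

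Of 10 intermediate filament genes with at least 50 UMIs, Nes and Vim included, 3 had over 2-fold higher levels in neurosphere cells, 5 over 2-fold lower, and the median log2 ratio was -1.15, beside 21.7% higher, 11.7% lower and a median of 0.32 over all genes tested. Prph, the peripherin of peripheral neurons, was at 174 and 5.34 CPM in adherent and neurosphere cells, and Lmna, the A-type lamin of the nuclear envelope, at 243 and 64.9 CPM. The B-type lamins were higher in neurosphere cells, Lmnb1 at 53.2 and 129 CPM and Lmnb2 at 11.9 and 34.5 CPM.

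Among the surface markers, Cd44 was counted in both cultures and Prom1 in almost no cell. Cd44 (ENSMUSG00000005087, chr2:102811141-102901665, minus strand) encodes the hyaluronan receptor, a marker of the mesenchymal state of glioma. It had 4925 UMIs and 106 CPM (103 to 109) in adherent cells and 3535 UMIs and 54.4 CPM (52.7 to 56.3) in neurosphere cells. The log2 ratio was -0.97 (-1.03 to -0.90), 1.95-fold lower in neurosphere cells, just short of the 2-fold limit, and 12.1% of all genes had a lower ratio. At equal depth, 40.1% of adherent cells (38.6 to 41.5%) and 20.3% of neurosphere cells (19.1 to 21.5%) carried a Cd44 UMI. Cd44 was past the 2-fold limit without the 5% of cells with most UMIs (log2 ratio -1.05), with TMM scaling (-1.18), with cells weighted equally (-1.17), with the length trend removed (-1.14) and in cells with no cycling UMI (-1.28).

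Of 10 ligands and membrane partners of CD44 with at least 50 UMIs, 2 were over 2-fold higher and 2 over 2-fold lower. Their median log2 ratio was -0.20, beside 21.7% higher, 11.7% lower and a median of 0.32 over all genes tested. Spp1, which encodes the ligand osteopontin, was at 56.9 and 10.3 CPM in adherent and neurosphere cells, and Cd74, which pairs with CD44 in signaling by MIF, at 4.73 and 0.908 CPM. Vcan, the matrix proteoglycan versican, was at 3.50 and 12.3 CPM, and Met, a receptor kinase for which CD44 serves as a co-receptor, at 6.55 and 37.6 CPM.

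Prom1 (ENSMUSG00000029086, chr5:43993620-44102032, minus strand) encodes prominin 1, the CD133 antigen by which glioma stem cells are often sorted. No Prom1 UMI was counted in the 5051 kept adherent cells, which allows a level of up to 0.0648 CPM at 3 counts. In neurosphere cells 3 UMIs were counted, in 3 of 4276 cells (0.0702%, interval 0.0145 to 0.205%). Both values lie at or below the floor of 3 counts, so no ratio is given and a difference was not detectable at this depth. Gm42716, which overlaps Prom1 on its own strand, and the antisense gene Gm16401 also had no UMI in either culture. Of 5 relatives and membrane partners with at least 50 UMIs, Prom2, the other prominin, was at 1.10 and 1.23 CPM. Of the tweety family genes, Ttyh2 was at 19.6 and 4.82 CPM and Ttyh3 at 3.33 and 15.9 CPM, and Arl13b, a small GTPase of cilia, was at 35.7 and 24.9 CPM. Over those 5 genes the median log2 ratio was -0.52, with 1 over 2-fold higher and 1 over 2-fold lower. For all genes tested the median was 0.32, with 21.7% over 2-fold higher and 11.7% over 2-fold lower.

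In neurosphere cells, Fabp7 had the highest ratio of variance to mean of UMIs per cell among the markers, while in adherent cells Vim did. Fabp7 (ENSMUSG00000019874, chr10:57784881-57788450, plus strand) encodes the brain fatty acid binding protein of radial glia. It had 1853 UMIs and 40.0 CPM (38.2 to 41.9) in adherent cells and 4150 UMIs and 63.9 CPM (62.0 to 65.9) in neurosphere cells, a log2 ratio of 0.67 (0.60 to 0.75). The share of cells with a UMI at equal depth was 14.8% (13.8 to 15.9%) in adherent and 13.4% (12.4 to 14.5%) in neurosphere cells, and these intervals overlap. The top 10% of cells with most Fabp7 UMIs held 75.5% of them in the adherent and 90.4% in the neurosphere culture. The variance of the Fabp7 UMIs per cell was 1.86 times their mean in adherent cells and 13.8 times in neurosphere cells, against 7.21 and 6.68 times for Vim, and the highest cell had 14 and 95 UMIs.

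In neurosphere cells, 23 cells, 0.548% of those thinned, had 10 or more Fabp7 UMIs and together held 31.6% of all Fabp7 UMIs. In adherent cells 2 cells reached 10 UMIs and held 3.07%. Hes5, the Notch target of radial glia, was looked up in these cells after the data were seen. Its level in neurosphere cells was 12.0 CPM where Fabp7 had no UMI, 55.6 CPM at 1 to 2 Fabp7 UMIs, 79.2 CPM at 3 to 9 and 252 CPM at 10 or more, the last from 29 Hes5 UMIs. Nes was lower where Fabp7 was counted, from 203 CPM in neurosphere cells with no Fabp7 UMI to 143 CPM at 1 to 2, 140 CPM at 3 to 9 and 148 CPM at 10 or more, the last from 17 UMIs with an interval of 86.1 to 237 CPM that includes the first value. Cd44 was at 55.5 CPM with no Fabp7 UMI, and at 29.4, 22.6 and 43.5 CPM in the 3 higher bins, the last from 5 UMIs. In adherent cells, Nes was at 102 CPM with no Fabp7 UMI and 101 CPM at 1 to 2, and Cd44 at 109 CPM in either bin. At 3 to 9 Fabp7 UMIs, in 33 adherent cells, Nes was at 90.9 CPM from 15 UMIs. Cd44 was at 60.6 CPM there, from 10 UMIs, with an interval of 29.1 to 111 CPM. A Cd44 UMI was present in 18.2% of these 33 cells (6.98 to 35.5%), against 40.1% (38.5 to 41.7%) of adherent cells with no Fabp7 UMI.

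Of the fatty acid binding proteins, only Fabp3, Fabp5 and Fabp7 had at least 50 UMIs, and none of the 3 passed 2-fold. Fabp5, the widespread family member of epidermis and brain, was at 487 and 313 CPM in adherent and neurosphere cells, and Fabp3 at 4.84 and 5.24 CPM. The median log2 ratio of the 3 was 0.11.

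Of the Musashi genes, which encode RNA-binding repressors of translation in neural progenitors, both had a higher CPM in neurosphere cells, though the ratio of Msi2 turned below 0 once the trend with gene length was removed. Msi1 (ENSMUSG00000054256, chr5:115429599-115455698, plus strand) had 216 UMIs and 4.67 CPM (4.06 to 5.33) in adherent cells and 562 UMIs and 8.65 CPM (7.95 to 9.40) in neurosphere cells. The log2 ratio was 0.89 (0.66 to 1.12), and a UMI was present in 2.02% (1.62 to 2.47%) and 4.69% (4.07 to 5.38%) of cells at equal depth. In thinned cells with no cycling UMI the log2 ratio was 1.55, but only 5 adherent Msi1 UMIs stand behind it. The antisense gene 4930430O22Rik inside Msi1 had 0 and 6 UMIs.

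Msi2 (ENSMUSG00000069769, chr11:88339382-88718513, minus strand) had 2322 UMIs and 50.2 CPM (48.1 to 52.2) in adherent cells and 4169 UMIs and 64.2 CPM (62.3 to 66.2) in neurosphere cells. Its log2 ratio of 0.36 (0.28 to 0.43) differed from the median of all genes by 0.03. Msi2 spans 379 kb, and when the trend of the ratio with gene length was removed its log2 ratio turned to -0.19. A UMI was present in 20.8% of adherent cells (19.6 to 22.0%) and 27.8% of neurosphere cells (26.4 to 29.2%) at equal depth. Whether reads in introns were counted is not given in the sources used here.

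Bmi1 was the marker with the highest ratio among the 7. Bmi1 (ENSMUSG00000026739, chr2:18677018-18686629, plus strand) encodes a subunit of Polycomb repressive complex 1 (PRC1), which silences the Cdkn2a locus in stem cells. It had 854 UMIs and 18.4 CPM (17.2 to 19.7) in adherent cells and 2515 UMIs and 38.7 CPM (37.2 to 40.3) in neurosphere cells, 2.10-fold higher (1.94 to 2.27), with a log2 ratio of 1.07 (0.96 to 1.18). Of all genes tested, 80.4% had a lower ratio. At equal depth, 8.60% of adherent cells (7.80 to 9.46%) and 17.6% of neurosphere cells (16.4 to 18.8%) carried a Bmi1 UMI. Bmi1 was under the 2-fold limit with TMM scaling (log2 ratio 0.85) and in thinned cells with no cycling UMI (0.79, from 25 adherent and 189 neurosphere UMIs), and over it in the other 9 alternatives.

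All 13 PRC1 subunits examined had at least 50 UMIs, 3 of them were over 2-fold higher and none over 2-fold lower, and the median log2 ratio was 0.57, beside 21.7% of all genes over 2-fold higher and a median of 0.32. Besides Bmi1 these were Rnf2, its ring finger partner with ligase activity, at 18.4 and 37.8 CPM, and Cbx6, a chromodomain reader, at 15.3 and 39.9 CPM. The lowest ratios were those of Pcgf2, the paralog of Bmi1, at 17.1 and 17.4 CPM, and Cbx7 at 8.97 and 6.64 CPM. Of 5 known targets of Bmi1 and the Musashi proteins, 1 was over 2-fold higher and 1 over 2-fold lower, and their median log2 ratio was 0.10. The same values over all genes tested were 21.7%, 11.7% and 0.32. Cdkn2a, which encodes a pair of cell cycle inhibitors, was at 775 and 502 CPM in adherent and neurosphere cells, a log2 ratio of -0.63. Its neighbor Cdkn2b was at 93.3 and 27.8 CPM, a log2 ratio of -1.74. Numb, the Notch inhibitor whose translation Musashi represses, was at 13.6 and 43.5 CPM, and Numbl at 13.4 and 14.6 CPM.

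Fut4 and Aldh1a1, the markers that stand for an activity or an epitope, were near the limit of detection. Fut4 (ENSMUSG00000049307, chr9:14748320-14752393, minus strand) encodes a fucosyltransferase that builds the Lewis X epitope, known as CD15 or SSEA-1. It had no UMI in either culture, which allows up to 0.0648 CPM in the adherent and 0.0462 CPM in the neurosphere culture at 3 counts, so no ratio is given. Of the other genes of fucosylation, 6 had at least 50 UMIs, 2 of them were over 2-fold higher, none was over 2-fold lower, and the median log2 ratio was 0.47, which is near the shares (21.7% and 11.7%) and the median (0.32) of all genes tested. Fut9, the other enzyme known to build Lewis X, had 0 and 10 UMIs. Fut8, which adds the core fucose, was at 12.6 and 29.5 CPM, Slc35c1, the transporter of GDP-fucose, at 4.58 and 8.30 CPM, and the GDP-fucose synthesis genes Gmds and Tsta3 at 85.8 and 73.0 CPM and at 141 and 108 CPM.

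Aldh1a1 (ENSMUSG00000053279, chr19:20492715-20643465, plus strand) encodes a retinaldehyde dehydrogenase and is the gene usually credited with the dye reaction used to sort aldehyde dehydrogenase positive stem cells. It had 6 UMIs in adherent cells (0.130 CPM, interval 0.0476 to 0.282) and 22 UMIs in neurosphere cells (0.339 CPM, 0.212 to 0.513). The log2 ratio was 1.39 with an interval of 0.04 to 2.98, on counts below the minimum of 50 UMIs, and at equal depth 5 of 4464 adherent and 4 of 4196 neurosphere cells carried a UMI. The antisense gene C730002L08Rik had 8 and 6 UMIs. Other aldehyde dehydrogenases were far better counted: of 9 with at least 50 UMIs, 1 was over 2-fold higher and 3 over 2-fold lower, with a median log2 ratio of -0.45. Of all genes tested, 21.7% were over 2-fold higher and 11.7% over 2-fold lower, with a median of 0.32. Aldh1a3 was at 17.1 and 6.14 CPM in adherent and neurosphere cells and Aldh1b1 at 8.66 and 0.431 CPM, while Aldh1a2, with 3 and 433 UMIs, was at 0.0648 and 6.67 CPM and Aldh1l1 at 3.63 and 5.39 CPM.

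**Figure D3:**
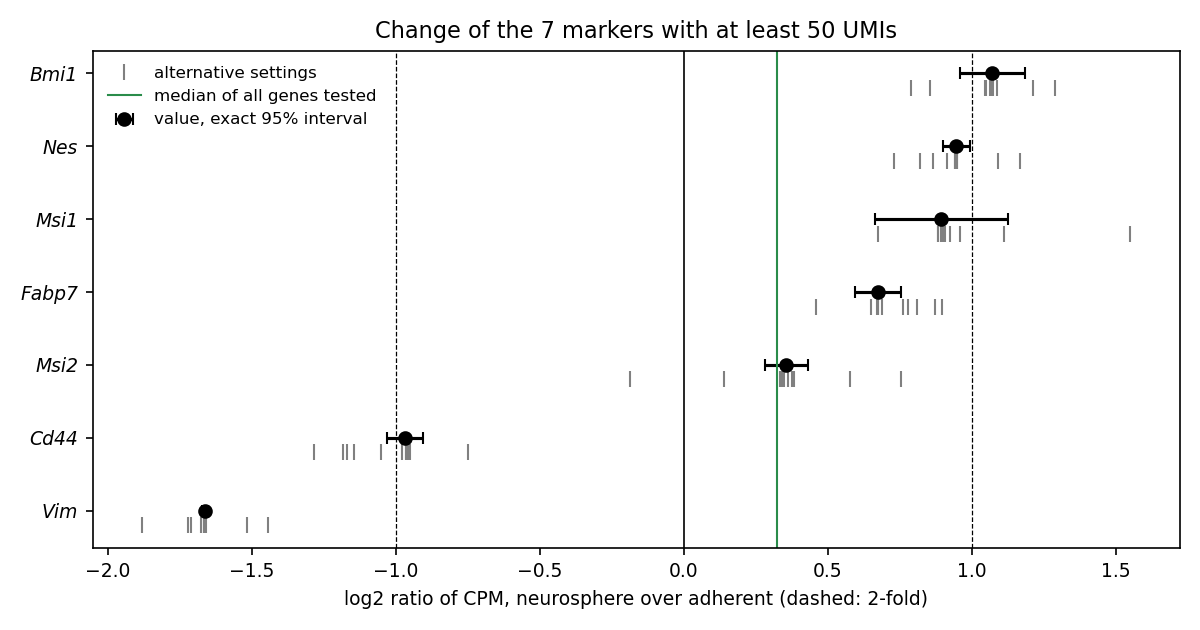
Log2 ratio of neurosphere to adherent CPM for the 7 markers with at least 50 UMIs. Black points are the values with exact 95% intervals, grey ticks are 11 alternative settings, dashed lines mark 2-fold and the green line the median of all 14654 genes at 0.32. Vim stays past 2-fold lower under each alternative, Cd44 and Bmi1 lie near the 2-fold lines, and Msi2 lies at the median of all genes with 1 tick below 0.

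How many markers a cell carried depended on depth. At 5000 UMIs per cell, the mean number of the 10 markers with a UMI was 2.22 in adherent and 2.32 in neurosphere cells, with a median of 2 in both cultures. At least 3 markers were present in 34.5% of adherent cells (33.1 to 35.9%) and 40.2% of neurosphere cells (38.7 to 41.7%). At least 5 were present in 1.48% (66 cells, 1.15 to 1.88%) and 1.88% (79 cells, 1.49 to 2.34%), and these intervals overlap. No cell carried more than 7. Without thinning, the same share was 7.50% of adherent and 20.7% of neurosphere cells, and with at least 2 UMIs asked of each marker it was 0 in both cultures.

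**Figure D4:**
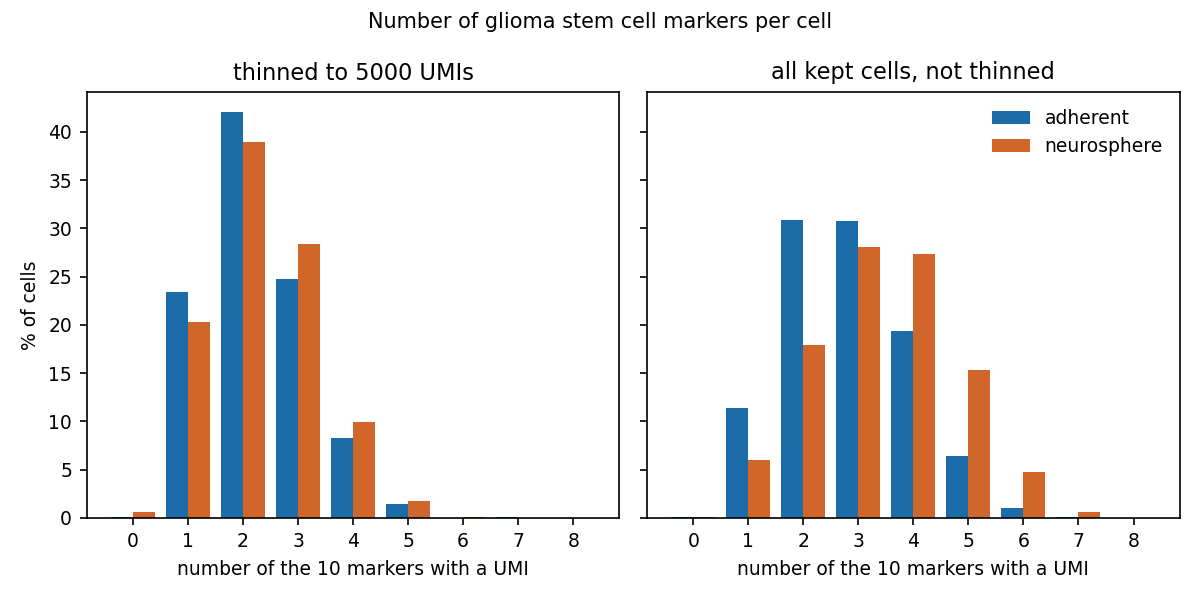
Share of cells, in percent, by how many of the 10 markers had a UMI in the cell, for cells thinned to 5000 UMIs (left) and for all kept cells without thinning (right). At equal depth the cultures lie close, with means of 2.22 and 2.32 markers, while without thinning neurosphere cells are shifted to more markers, with means of 2.82 and 3.45.

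The thinned cells held 59 different combinations of markers in the adherent and 85 in the neurosphere culture. Vim alone was the most frequent combination in both cultures, in 23.3% of adherent and 19.3% of neurosphere cells. The next in adherent cells was Cd44 with Vim, in 16.3%, followed by Nes with Vim in 13.3%. In neurosphere cells Nes with Vim followed in 18.7%, then Nes, Vim and Msi2 in 7.22%. The following sets were looked up after the data were seen. Nes and Vim together, whatever else the cell carried, were present in 35.9% of adherent cells (34.5 to 37.4%) and 49.9% of neurosphere cells (48.4 to 51.5%), and Nes, Vim and Cd44 in 14.3% (13.3 to 15.4%) and 11.2% (10.2 to 12.2%). Cd44 and Fabp7 were together in 5.94% of adherent cells (5.26 to 6.67%) and 1.55% of neurosphere cells (1.20 to 1.97%), and Nes and Fabp7 in 5.15% (4.52 to 5.84%) and 5.65% (4.97 to 6.39%). Msi1 and Msi2 shared 0.538% of adherent cells (0.345 to 0.799%) and 1.55% of neurosphere cells (1.20 to 1.97%). Prom1 was found with Nes in 1 neurosphere cell and with Cd44 or Fabp7 in none, out of 4196.

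Whether a cell with a given marker carried another more often than a cell without it was read from thinned cells, for pairs with at least 100 cells on each side. In adherent cells, none of 45 ordered pairs had intervals that lay apart. In neurosphere cells, 8 of 63 ordered pairs did, which were the pairs of Nes with Cd44, Nes with Fabp7, Nes with Msi1 and Cd44 with Fabp7, each in both orders. The share of such pairs among other genes was not measured, so the count is a description only. Cd44 was present in 22.4% of neurosphere cells with Nes (20.7 to 24.2%) and 17.98% of those without (16.3 to 19.7%), and Msi1 in 6.13% (5.15 to 7.22%) and 3.18% (2.47 to 4.04%). Fabp7 was present in 10.998% of neurosphere cells with Nes (9.71 to 12.4%) and 16.0% of those without (14.5 to 17.7%). Among neurosphere cells with Fabp7, Cd44 was present in 11.5% (9.01 to 14.5%), against 21.6% (20.3 to 23.0%) of those without. In adherent cells, Cd44 was present in 40.1% of cells with Fabp7 (36.3 to 43.9%) and 40.1% of those without (38.5 to 41.7%), and too few adherent cells had Msi1 to read its pairs in both orders. The 45 and 63 pairs include those with Prom1, Fut4 or Aldh1a1 as the second marker, which had too few UMIs for intervals to lie apart. These intervals treat cells as independent draws, cells are not replicates, and the difference between the cultures was not tested.

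To see where in each culture the markers lay, cells were clustered with the 10 markers left out of the variable genes, which gave 11 adherent and 10 neurosphere clusters. Bmi1 was the most even marker of the neurosphere culture, with cluster levels from 32.7 to 46.5 CPM, and Fabp7 the least even, from 9.60 to 116 CPM, though at a resolution of 0.8 the ratio of the highest to the lowest cluster was 3.95 for Fabp7, 4.76 for Cd44 and 4.03 for Msi1. Vim varied from 4376 to 6994 CPM over 10 adherent clusters, all above the highest neurosphere cluster at 3138 CPM. The remaining adherent cluster held 47 cells with a median of 2600 UMIs, 12.4% mitochondrial UMIs, and Lars2, Pcdh9 and Neat1 as leading genes. It had the lowest Vim (1863 CPM) and the highest Cd44 (538 CPM, from 69 UMIs), Msi2 (320 CPM, from 41 UMIs) and Msi1 (23.4 CPM, from 3 UMIs). Leaving it out, a choice made after the data were seen, brought the ratio of the highest to the lowest adherent cluster to 2.13 for Cd44, 2.50 for Msi2 and 2.77 for Msi1, while the log2 ratios between cultures moved little, for instance that of Cd44 from -0.97 to -0.95.

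**Figure D5:**
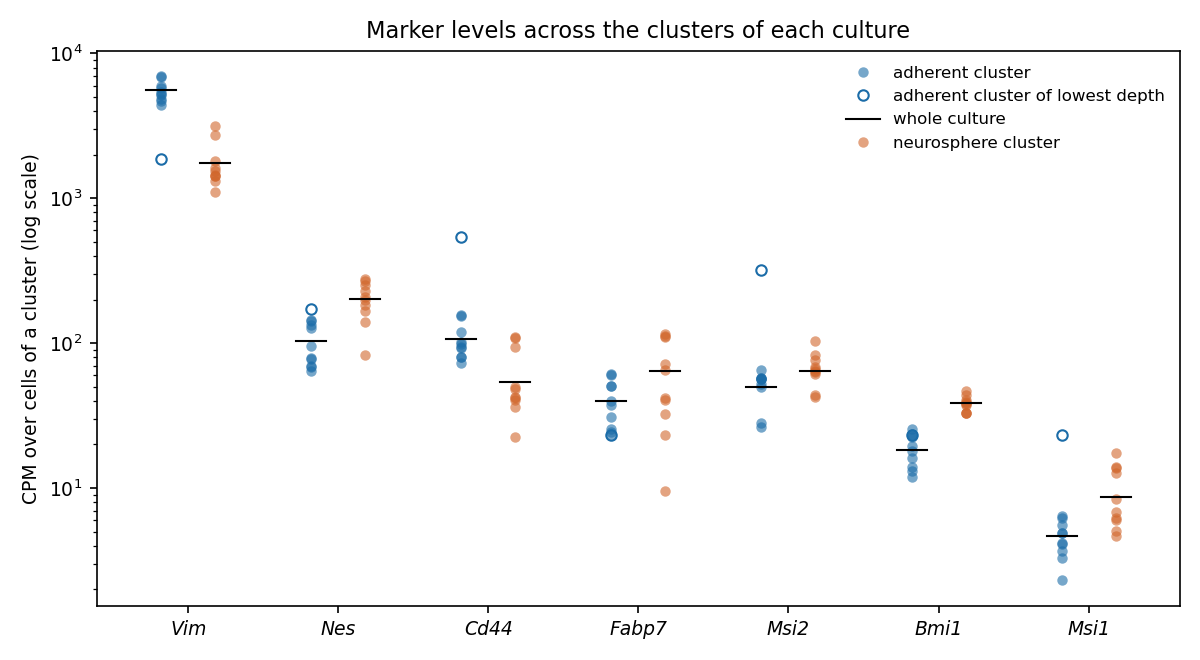
Level of 7 markers in CPM (log scale) in each of 11 adherent and 10 neurosphere clusters, with the level of the whole culture as a black line. The open circle is the adherent cluster of lowest depth, with 47 cells. Vim levels of the 10 other adherent clusters lie above all neurosphere clusters, and Bmi1 levels of all neurosphere clusters lie above all adherent clusters, while Fabp7 spreads from 9.60 to 116 CPM within the neurosphere culture.

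In this clustering, Nes, Cd44 and Msi1 were lowest in the neurosphere cluster in which Fabp7 was highest, and that held when the markers were kept among the variable genes, but not at a resolution of 0.8 or with another seed. With that seed, the cluster with the highest Fabp7 (408 CPM) also had the highest Msi1 (27.7 CPM). In the clustering described here, the first cluster, led by the myelin gene Mbp and by Enpp2 (411 cells), had the lowest Nes (83.5 CPM), Cd44 (22.4 CPM) and Msi1 (4.64 CPM) and the highest Fabp7 (116 CPM) of the culture. The cluster led by S100a6, Chit1 and Ifit3 (400 cells) had the highest Nes (278 CPM), Vim (3138 CPM) and Msi1 (17.5 CPM), with Cd44 at 108 CPM. The cluster led by Lpcat2, Hmga2 and Reln (349 cells) was high in Nes (269 CPM), Cd44 (93.6 CPM) and Fabp7 (112 CPM) alike. The cluster led by Pdzd2, Comp and Nptx1 (598 cells), with the fewest cycling transcripts, had the lowest Fabp7 (9.60 CPM) and the highest Msi2 (104 CPM). The cluster led by the mitosis genes Depdc1b, Top2a and Cenpe (605 cells) had the lowest Vim (1101 CPM), the highest Bmi1 (46.5 CPM) and 110 CPM of Fabp7. Some of these orders were within counting error: the intervals of Fabp7 overlapped between the clusters led by Mbp (106 to 128 CPM), Lpcat2 (105 to 120 CPM) and Depdc1b (104 to 117 CPM), those of Nes between the clusters led by S100a6 (264 to 293 CPM) and Lpcat2 (258 to 281 CPM), and the lowest and the highest Msi1, from 18 and 93 UMIs, each overlapped other clusters, as did the highest Bmi1. The spread of Fabp7 depended on the clustering, with a highest to lowest ratio of 12.1 that became 43.0 with another seed. Clusters differed in depth, with medians of 7635 to 20986 UMIs per neurosphere cell, and the part of depth in these levels was not tested.

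In adherent cells, Nes was between 63.9 CPM (cluster led by Mt3 and Slc47a1, 560 cells) and 145 CPM (cluster led by 9130015A21Rik and Col2a1, 716 cells), leaving aside the cluster of 47 cells. The former had 156 CPM of Cd44 and 24.5 CPM of Fabp7, and the latter 120 CPM of Cd44 and the highest Fabp7 (61.0 CPM) and Vim (6994 CPM), though the intervals of Nes at both ends and of Fabp7 and Vim at the top overlapped those of the next cluster. The genes whose cluster pattern was most like that of a marker, by Pearson’s r of log2(CPM + 10) over the 10 neurosphere clusters, were Morc4 and Tesc for Nes (r = 0.98 and 0.93), Slc2a1 and Ezr for Cd44 (0.97 and 0.96), and Kifc3 and Zdhhc21 for Fabp7 (0.96 and 0.92). For Vim they were Nt5c and Cfap410 (0.95 for both), for Msi1 Src and Avpi1 (0.96 and 0.95), for Msi2 Zfhx3 and Col4a5 (0.98 and 0.97), and for Bmi1 Cbx1 and Nadk2 (0.90 and 0.88). In adherent cells, over 11 clusters, they were Itga1 and Wtap for Nes (0.94 and 0.91), Tmem121 and Pxdc1 for Fabp7 (0.86 and 0.84) and Hnrnpu and Gbp7 for Bmi1 (0.94 and 0.92). Those for Cd44 (Scamp1 and Nfat5), Vim (Cnpy2 and Cbr4) and Msi2 (Stox2 and Dennd1b) had r between 0.99 and 1.00, which fell to between 0.91 and 0.98 without the cluster of 47 cells. These are the highest correlations among all genes tried, over few clusters that share a library, and they describe the pattern only.

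Within neurosphere cells, the markers also differed with the cell cycle, read from UMIs of Mki67, Top2a, Cdk1, Ccnb1, Birc5 and Ube2c in thinned cells. Msi2 was at 86.7 CPM in the 1054 cells with no UMI of these genes and 58.9 CPM in the 1967 cells with at least 5, a log2 ratio of -0.56 (-0.74 to -0.38). Nes (212 and 179 CPM, -0.24) and Vim (1896 and 1548 CPM, -0.29) were also lower in the latter, Fabp7 was higher (56.2 and 81.7 CPM, 0.54), and Bmi1 was higher (35.9 and 43.2 CPM, 0.27), with intervals that exclude 0. All of these intervals take UMIs as independent, though few cells held many of the Fabp7 UMIs. The variance of UMIs per cell was 13.8 times the mean for Fabp7 in neurosphere cells. For Vim it was 6.68 times the mean in neurosphere and 7.21 times in adherent cells. The intervals of Fabp7 and Vim are therefore too narrow. For Cd44 (0.16) and Msi1 (-0.44) the interval included 0. In adherent cells, with 241 and 3002 cells, only Vim had an interval that excluded 0, at 6057 and 5529 CPM (-0.13), and the small number of adherent cells without cycling UMIs limits the precision of the rest. The 6 cycling genes themselves had a median log2 ratio of -0.17 between the cultures, and none of them passed 2-fold, Ube2c being lowest at 856 and 582 CPM, Mki67 at 77.2 and 62.7 CPM, Cdk1 at 446 and 462 CPM and Ccnb1 highest at 108 and 139 CPM. The number of cells differed more: 241 of 4464 thinned adherent and 1054 of 4196 thinned neurosphere cells had no UMI of these genes.

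Gene lists of the mesenchymal and the progenitor state of glioma cells, which the markers are used to tell apart, moved in opposite directions. Of 14 genes of the mesenchymal state with at least 50 UMIs, 11 were over 2-fold lower in neurosphere cells and none over 2-fold higher, with a median log2 ratio of -1.91, beside 11.7% lower, 21.7% higher and a median of 0.32 over all genes tested. Vim is a gene of that list, and so is Cd44, which did not reach 2-fold. Lgals3, which encodes galectin 3, was at 4782 and 391 CPM in adherent and neurosphere cells. Relb (20.7 and 24.5 CPM) and the matrix gene Tnc (2.44 and 3.63 CPM) had the highest ratios of the list.

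Of 11 genes of the progenitor states with at least 50 UMIs, 7 had a level over 2-fold higher in neurosphere cells, none a level over 2-fold lower, and the median log2 ratio was 2.73, again beside 21.7% and 11.7% of all genes, which are also the shares to set beside the lists that follow. Dll3, a Notch ligand of oligodendrocyte progenitors, was at 0.778 and 249 CPM in adherent and neurosphere cells, and Sox8 at 0.410 and 60.5 CPM. Sox2, the stem cell factor of the same list, was at 209 and 180 CPM, and Tnr at 1.17 and 1.36 CPM. Of 9 differentiation genes, 4 were over 2-fold higher and 1 over 2-fold lower, with a median of 0.68, among them Mog (0.324 and 11.7 CPM), Map2 (25.2 and 186 CPM) and Mbp (255 and 124 CPM), while the highest ratio was that of Mag, with 2 and 193 UMIs. Of 17 other genes used as glioma stem cell markers, 3 were over 2-fold higher, 6 over 2-fold lower and the median log2 ratio was 0.01. Olig2, the oligodendrocyte lineage factor, was at 69.8 and 465 CPM and Pou3f2 at 11.3 and 30.2 CPM, while the adhesion gene L1cam was at 60.9 and 3.40 CPM and Id3, a BMP target, at 992 and 164 CPM. Several genes stand in more than 1 of these lists, so their counts are not independent.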

How the data were processed

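For each of the 2 libraries, the authors deposited a raw count of UMIs for each gene in each called cell, which Cell Ranger 7.0.1 made on mm10, with neither normalization nor further filtering. The setting for reads in introns is not given in the sources used here. The 13 mitochondrial (mt-) and 101 ribosomal (Rps, Rpl) genes were removed, followed by cells with fewer than 1000 UMIs or fewer than 1250 (adherent) or 2250 (neurosphere) genes, as in the study's methods, which left out 713 and 675 of 5764 and 4951 called cells. The study states slightly more remaining cells in both cultures, and the cause of the difference was not tested. The cells left out had medians of 48.8% and 87.0% mitochondrial UMIs. No doublet caller was used, and the 5% of cells with most UMIs were left out as an alternative.

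UMIs were summed per culture and divided by the total to give CPM. Intervals are Poisson for CPM, conditional for ratios and Clopper-Pearson for shares, at 95%. Only the ratio intervals were tested on simulated data, with Poisson counts per library. That simulation held no spread between cells, so coverage under such spread was not tested. With 1 library per culture, over 2-fold is the only call. Cells were thinned without replacement. Clusters came from Seurat 5.3.0 in R 4.3.3 (2000 variable genes less the markers, 17 adherent and 18 neurosphere PCs, resolution 1.0). TMM factors came from edgeR 4.0.16, and the trend with gene length came from lowess with a span of 0.5 (statsmodels 0.14.6). Positions are those of GENCODE on GRCm38, where 32235 of 32285 identifiers matched. Sums and intervals were made in Python 3.11.15 (pandas 2.3.3, numpy 2.4.6 and scipy 1.17.1), and plots in matplotlib 3.10.9.

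All 10 markers are named. Of each gene list, the 2 highest and the 2 lowest ratios of CPM (with 1 CPM added to both) of its genes with 50 or more UMIs are named, and for each marker with at least 100 UMIs the 2 genes with the most similar cluster pattern, among genes with at least 1000 UMIs. Some genes that this rule picks are not reported here. Other genes named (Fut9, Rnf2, Hes5, Mag, and markers of other cell types) were chosen after their values were seen. The markers and gene lists were chosen with earlier results of these data known. Chi3l1 was looked up as Chil1. The lists cover other stem cell genes, intermediate filaments, aldehyde dehydrogenases, fatty acid binding proteins, fucosylation, PRC1, targets of Bmi1 and Musashi, CD44 partners, prominin partners, mesenchymal, progenitor, differentiation and cycling genes, and markers of astrocytes, immune cells, endothelial and mural cells, fibroblasts and neurons.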

Additional observations from a re-analysis of the deposited data

How the results depend on the processing

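The number of the 7 markers over 2-fold higher in neurosphere cells was 1, and it was 0 with TMM scaling, 3 with a total that held mitochondrial and ribosomal genes too (Bmi1, Nes and Msi1) and 2 with the gene length trend removed (Bmi1 and Nes). In thinned cells with no cycling UMI it was 1, Msi1 in place of Bmi1, on only 5 and 25 adherent UMIs of these genes. The number over 2-fold lower was 1, and it was 2, Vim and Cd44, without the 5% of cells with most UMIs, with TMM scaling, with cells weighted equally, with the length trend removed and in cells with no cycling UMI. Keeping all called cells, setting either culture's minimum of genes per cell for both, only cells under 10% mitochondrial UMIs, or leaving out the adherent cluster of lowest depth moved neither number. The log2 ratio of Msi2 turned to -0.19 with the length trend removed and that of Aldh1a1, to -0.54 in cells with no cycling UMI, on 1 adherent and 3 neurosphere UMIs. The other ratios of the 8 markers with UMIs in both cultures kept their direction under each alternative run. TMM scaling and the total with mitochondrial and ribosomal genes shift all genes alike, by -0.22 and 0.22, which accounts for the changes under them. The cause of the other changes was not tested.

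The share of cells with at least 5 markers moved with depth and with the number of UMIs asked of each marker. In adherent cells it was 7.50% without thinning, 0.407% at 3000 UMIs, 4.23% at 8000 UMIs and 0 with at least 2 UMIs of each marker, against 1.48%. In neurosphere cells it was 20.7%, 0.702%, 5.77% and 0, against 1.88%. With at least 10 in place of 50 UMIs per gene, 23.6% of genes were over 2-fold higher and 14.7% lower. No paired analysis was possible because each culture has 1 library, and for the same reason no library could be left out. Depth limits Prom1, Fut4 and Aldh1a1, for which no difference between the cultures can be read.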

Other observations

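The barcodes left out by the cell filter, 713 in the adherent and 675 in the neurosphere library, also held marker UMIs, which enter no comparison. In the adherent library they held 124 UMIs of Cd44, or 316 CPM over the genes left, against 106 CPM in the kept cells, 48 UMIs of Msi2 (122 CPM against 50.2 CPM), 61 UMIs of Nes (156 CPM against 104 CPM), 8 UMIs of Fabp7 (20.4 CPM against 40.0 CPM) and 1407 UMIs of Vim (3589 CPM against 5583 CPM). In the neurosphere library they held 58 UMIs of Cd44 (101 CPM against 54.4 CPM), 62 UMIs of Msi2 (108 CPM against 64.2 CPM), 116 UMIs of Nes (202 CPM against 201 CPM), 938 UMIs of Vim (1632 CPM against 1763 CPM) and 20 UMIs of Fabp7 (34.8 CPM against 63.9 CPM). Neither Prom1, Fut4 nor Aldh1a1 had a UMI in these barcodes.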
